A study of Rattus norvegicus with 9 samples.

Results

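Asb3, Clca1 and Galnt13 were 3 protein-coding genes whose RNA gave a much dimmer signal in the kidney of the Dahl salt-resistant rat (Dahl R) than in the kidney of the Dahl salt-sensitive rat (Dahl S). They were 3 of the 13903 genes that had a probe on a custom Agilent array for rat coding and long noncoding RNA, and they were chosen on their signals in these same Dahl S and Dahl R arrays. The difference between those strains is therefore given below as a description with no test. What the choice did not fix was the position of the third strain, the spontaneously hypertensive rat (SHR). Each gene had 1 probe with 1 spot per array, matched by its RefSeq accession, and all 3 passed the filter on dim probes, which 10861 of the 13903 genes passed. Probe sequences were not used here, so whether a strain variant lies under any of the 3 probes was not tested. Levels below are therefore probe signals.

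Kidney RNA was measured from 3 Dahl S, 3 SHR and 3 Dahl R rats, 1 array per sample. All were males of 53 days, born on the same day, weaned at 30 days and then kept on a low-salt diet with 0.3% salt, so no animal received a salt load. Dahl S and Dahl R were bred in opposite directions from Sprague-Dawley stock for their blood pressure on a high-salt diet. SHR was bred from Wistar-Kyoto stock and becomes hypertensive without added salt. The strains differ at many loci, so a strain difference here is a difference between whole genetic backgrounds and not the effect of 1 allele. The labels give no litter or day of RNA preparation, and p-values measure only the spread between these samples, which may be technical. In whole-kidney RNA, fewer cells of a type and less RNA per cell cannot be told apart.

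Of 22 marker genes of the proximal tubule, thick ascending limb, distal convoluted tubule, collecting duct and podocyte, 21 were well above background on all 9 arrays. One array, SHR replicate 3, stood apart. Its log2 signals correlated with the other arrays at r = 0.920 to 0.956 across probes, against 0.951 to 0.997 among the other 8. Its median local background was 88 intensity units, against 43 to 45 elsewhere, and 43.1% of its probes were well above background, against 60.1% to 70.3%. The scan times split the arrays into 3 scans. Scan 1 held the 3 Dahl S arrays and Dahl R replicate 1, scan 2 held Dahl R replicates 2 and 3 with SHR replicates 1 and 2, and scan 3 held SHR replicate 3 alone. The members' SHR results are given with and without replicate 3. Of the other results with SHR, all 24 calls in the pathway lists below and all 5 in the neuron markers also passed, in the same direction, without that array, as did 8 of 9 among the chromosome neighbours.

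The genes belong to unrelated families. Asb3 encodes an ankyrin-repeat protein with a SOCS box. Proteins of this kind hold a substrate and dock it onto a cullin-5 ubiquitin ligase, and in human cells ASB3 has been linked to the turnover of TNF receptor 2. Clca1 encodes a secreted protein of mucus-producing cells that, in human cells, raises the calcium-activated chloride current carried by the channel anoctamin 1. Galnt13 encodes a Golgi enzyme that attaches the first sugar of mucin-type O-glycans to serine or threonine, and in the mouse it is known mainly from neurons. In the RefSeq annotation of the GRCr8 rat assembly Asb3 lies on chromosome 14, Clca1 on chromosome 2 and Galnt13 on chromosome 3.

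The promoter windows of Asb3 and Clca1 are shown from the RefSeq GRCr8 promoter table, which held no window for Galnt13. They run from 250 bases before to 50 bases after the annotated start, 5′ to 3′ on the gene's strand. The annotated Asb3 gene begins upstream of the start used here. Capitals mark matches, on either strand, to 4 short motifs. The TATA box was searched as TATAAA. The letters of the CAAT box were CCAAT. For the GC box, which Sp1-like factors read, the search used GGGCGG. A forkhead core was sought as GTAAACA. No overlap between these motifs arose in the windows shown.
Asb3, chr14:108894201-108894500, plus strand: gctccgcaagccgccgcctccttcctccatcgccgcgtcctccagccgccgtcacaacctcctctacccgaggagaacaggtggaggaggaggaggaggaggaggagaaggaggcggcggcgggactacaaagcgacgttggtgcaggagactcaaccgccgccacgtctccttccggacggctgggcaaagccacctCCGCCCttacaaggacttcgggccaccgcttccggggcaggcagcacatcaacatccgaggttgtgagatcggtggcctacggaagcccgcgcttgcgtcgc
Clca1, chr2:236624665-236624964, minus strand: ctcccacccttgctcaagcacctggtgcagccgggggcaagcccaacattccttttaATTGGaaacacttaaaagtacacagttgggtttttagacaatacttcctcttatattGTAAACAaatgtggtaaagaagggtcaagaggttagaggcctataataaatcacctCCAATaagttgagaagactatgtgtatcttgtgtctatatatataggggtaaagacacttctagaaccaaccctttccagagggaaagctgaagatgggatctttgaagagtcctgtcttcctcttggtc
These windows differed in composition. Asb3's held 66.7% G or C and 30 CG pairs, and Clca1's held 42.0% G or C and 1 CG pair, beside medians of 51.7% and 7 CG pairs over all 33469 promoter windows of that length. Asb3's window held 1 GC box match, read on the other strand, a motif present in 33.1% of all windows. Clca1's held 2 CAAT box matches, 1 on each strand, and 1 forkhead match. The CAAT box occurred in 37.5% of all windows and the forkhead core in 3.78%. Neither window held the TATA box as searched, which 14.2% of all windows held. A match describes letters and not a bound site.

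Values below are log2 of the background-subtracted processed signal minus log2 of the 75th percentile of that array, so that 0 marks a spot as bright as that percentile. Levels are compared between strains for 1 probe at a time. An array counts as well above background where the scanner software marked the spot so.

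**Figure D1:**
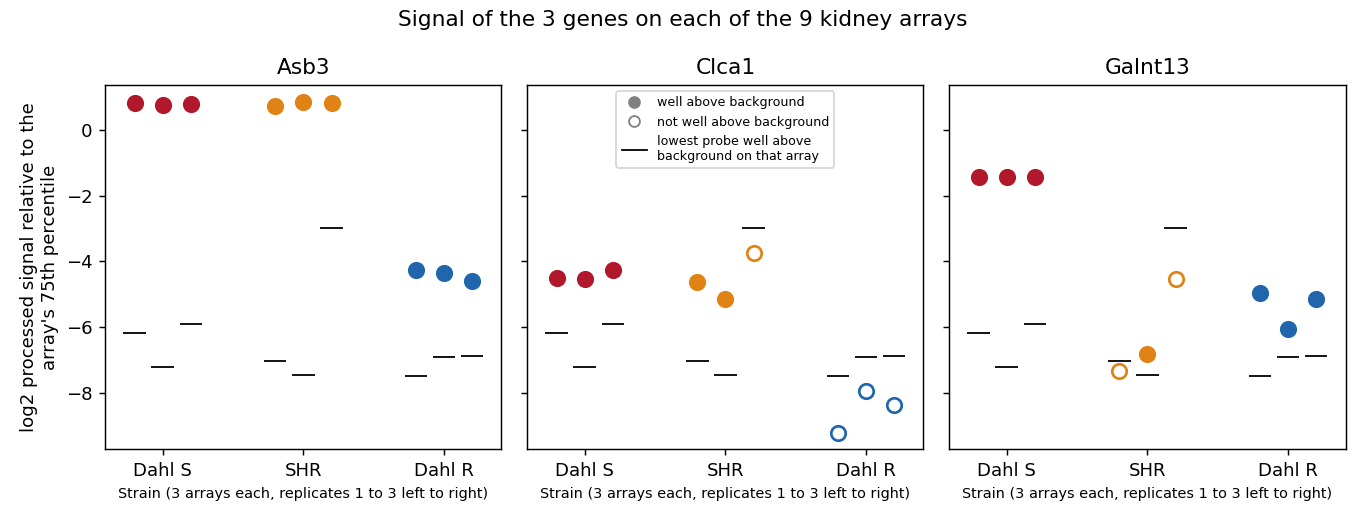
Level of Asb3, Clca1 and Galnt13 on each of the 9 kidney arrays (log2 of processed signal over that array's 75th percentile), with Dahl S, SHR and Dahl R from left to right; filled points are spots well above background, open points are not, and short lines mark the lowest probe well above background on that array. Asb3 and Clca1 sit together in Dahl S and SHR and lower in Dahl R, and Galnt13 is high in Dahl S alone, with SHR replicate 3 under a raised line.

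Asb3 was bright in Dahl S and in SHR and dim in Dahl R. Its level was 0.82, 0.77 and 0.78 in the 3 Dahl S kidneys, 0.74, 0.87 and 0.81 in the 3 SHR kidneys, and -4.27, -4.34 and -4.60 in the 3 Dahl R kidneys. In processed intensity units these were 3754, 4185 and 4489 in Dahl S, 4604, 4024 and 2572 in SHR, and 139, 108 and 106 in Dahl R. All 6 Dahl S and SHR arrays lay within a narrow band far above the 3 Dahl R arrays, SHR replicate 3 included. Means were 0.79 ± 0.03 in Dahl S, 0.81 ± 0.06 in SHR and -4.41 ± 0.18 in Dahl R (SD, n = 3 each). The Dahl R spots nevertheless passed as well above background, 3 of 3, so the signal of the Asb3 probe was low in Dahl R and not absent.

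Dahl S exceeded Dahl R in Asb3 by 5.20 ± 0.11 (SE) on the log2 scale, a 36.7-fold difference and the fifth largest positive difference among the 16592 probes tested. SHR exceeded Dahl R by 5.21 ± 0.11, a 37.1-fold difference with a limma adjusted p of 3.43e-07. Within scan 2, which held 2 SHR and 2 Dahl R arrays, the SHR minus Dahl R difference was 5.28, and over all scans but without SHR replicate 3 it was 5.21 (adjusted p = 7.96e-07). Within scan 1, which held 3 Dahl S arrays and 1 Dahl R array, the Dahl S minus Dahl R difference was 5.06. Dahl S and SHR overlapped in Asb3, and their difference was -0.02 ± 0.11 with a 95% interval of -0.26 to 0.23 (adjusted p = 0.923). The order was SHR and Dahl S together, with no difference beyond their spread, and then Dahl R.

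Clca1 was dim in every strain and was the only one of the 3 genes whose Dahl R spots all failed the scanner's test for signal well above background. Its level was -4.51, -4.54 and -4.26 in Dahl S, -4.63, -5.13 and -3.73 in SHR, and -9.22, -7.94 and -8.38 in Dahl R. Processed intensities were 93.3, 106 and 136 in Dahl S, 111, 62.9 and 110 in SHR, and 4.49, 8.90 and 7.69 in Dahl R. Dahl R lay apart from both other strains on all 3 arrays. In Dahl S 3 of 3 spots were well above background, and in SHR 2 of 3. On SHR replicate 3 it was not, and the dimmest probe well above background on that array stood at -2.99. Means were -4.44 ± 0.15 in Dahl S, -4.50 ± 0.71 in SHR and -8.52 ± 0.65 in Dahl R (SD, n = 3 each).

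Because Clca1 has only an upper limit in Dahl R, its folds are lower bounds. Each bound sets the bright strain's mean against the mean, over the Dahl R arrays, of the dimmest probe well above background or of the gene's own spot, whichever was higher. For Dahl S over Dahl R the Clca1 bound was at least 6.33-fold, from a measured difference of 4.08 ± 0.41. For SHR over Dahl R it was at least 6.07-fold, from a measured difference of 4.02 ± 0.41 (limma adjusted p = 0.000871), and at least 4.65-fold without SHR replicate 3, whose spot was not well above background. The SHR minus Dahl R difference without SHR replicate 3 was 3.64 (adjusted p = 0.000777). Within scan 2 it was 3.28, and the Dahl S minus Dahl R difference within scan 1 was 4.79. A normexp background correction, which models background in place of the scanner's subtraction, gave an SHR minus Dahl R difference of 1.63 with an adjusted p of 0.384, and so ended that call. Dahl S and SHR overlapped, with a difference of 0.06 ± 0.41 and a wide 95% interval of -0.90 to 1.02 (adjusted p = 0.932). No scan held both strains, and with scan as a block the Dahl S minus SHR difference was 1.51 ± 0.35 (adjusted p = 0.0734), which moved the value but did not pass. Dahl S and SHR were both above Dahl R, and their own order was not settled.

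Galnt13 was high in Dahl S alone. The level was -1.42, -1.44 and -1.44 in Dahl S, -7.33, -6.82 and -4.55 in SHR, and -4.98, -6.06 and -5.16 in Dahl R. As processed intensities these were 793, 905 and 962 in Dahl S, 17.1, 19.6 and 62.4 in SHR, and 85.1, 32.7 and 72.0 in Dahl R. The 3 Dahl S arrays agreed closely and lay far above all 6 others. Among those 6, SHR replicates 1 and 2 were below every Dahl R array, while SHR replicate 3 was above them. In Dahl R 3 of 3 spots were well above background, so the Galnt13 signal, like that of Asb3, was low and not absent there. In SHR it was well above background only on replicate 2. Means were -1.43 ± 0.01 in Dahl S, -6.23 ± 1.48 in SHR and -5.40 ± 0.58 in Dahl R (SD, n = 3 each).

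Dahl S exceeded SHR in Galnt13 by 4.80 ± 0.67 (limma adjusted p = 0.00313). With 1 of 3 SHR spots well above background, the fold is given as a bound by the rule used for Clca1, at least 18.1-fold. The same difference without SHR replicate 3 was 5.64 ± 0.32 (adjusted p = 6.93e-05). Dahl S exceeded Dahl R by 3.97 ± 0.67, a 15.6-fold difference, and by 3.55 within scan 1. SHR minus Dahl R was -0.83 ± 0.67 with a 95% interval of -2.38 to 0.71 (adjusted p = 0.455), and those strains overlapped through SHR replicate 3. This comparison turned on that array. Without SHR replicate 3 the SHR minus Dahl R difference was -1.67 ± 0.32 (adjusted p = 0.0111), and within scan 2 it was -1.46. In the authors' deposited table of processed values Galnt13 stood at 4.28, 4.58 and 3.86 in SHR, against 6.18, 5.24 and 6.14 in Dahl R, where the strains did not overlap. In order, Dahl S was highest and Dahl R and SHR followed, and those last strains did not differ past the threshold over all 9 arrays.

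The members therefore fell into 2 patterns over the strains. Asb3 and Clca1 were higher in SHR than in Dahl R, 2 of 3 members where 7.56% of all tested probes were called higher and 5.49% lower. For Galnt13 Dahl S exceeded SHR, 1 of 3 members where 7.08% of all tested probes were called higher. With SHR replicate 3 left out, 12.2% of probes were called higher and 10.6% lower in SHR minus Dahl R, and 13.0% higher in Dahl S minus SHR. The arrays of the members' higher strain lay wholly above those of the lower in 3 of 3 members for Dahl S minus Dahl R, which the choice fixed and which 18.1% of all tested probes showed. They did so in 2 of 3 for SHR minus Dahl R, against 24.7% of probes, and in 1 of 3 for Dahl S minus SHR, against 15.2%. Since SHR minus Dahl R shares its Dahl R arrays, and Dahl S minus SHR its Dahl S arrays, with the comparison that chose the genes, these calls are not independent of that choice. Across the 9 arrays the levels of Asb3 and Clca1 correlated at r = 0.969, those of Asb3 and Galnt13 at 0.330 and those of Clca1 and Galnt13 at 0.363. These points share their arrays and scans and are given as a description.

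**Figure D2:**
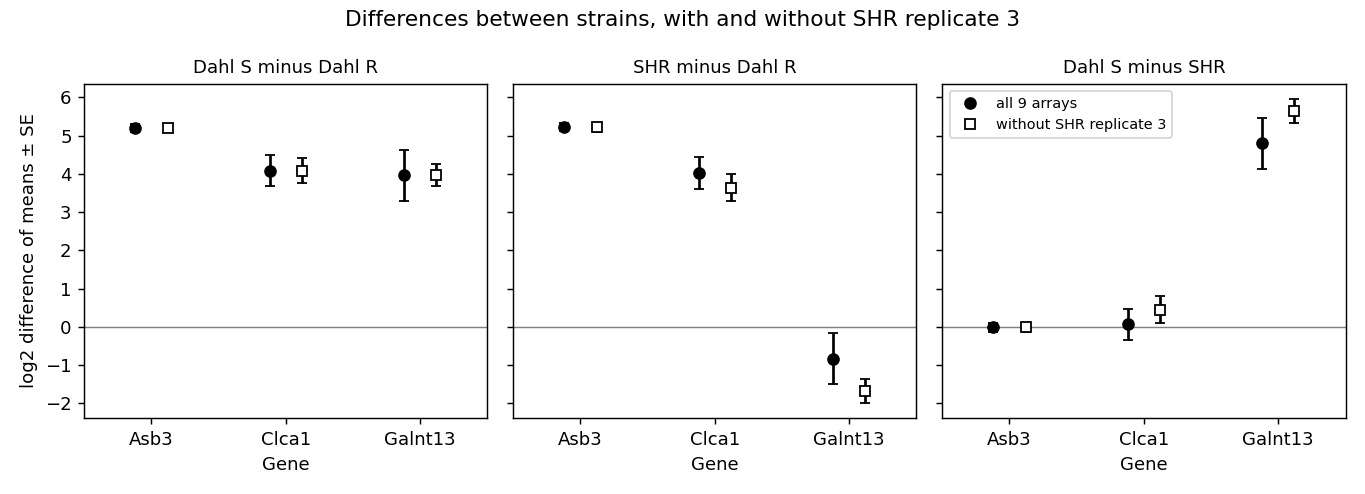
Log2 difference of strain means for Asb3, Clca1 and Galnt13 (points) with its SE (bars), for Dahl S minus Dahl R, SHR minus Dahl R and Dahl S minus SHR, over all 9 arrays (circles) and without SHR replicate 3 (squares). Asb3 and Clca1 lie near 0 in Dahl S minus SHR, whereas Galnt13 lies at 4.80 there and below 0 in SHR minus Dahl R.

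Over all tested probes the median difference was 0.02 for Dahl S minus Dahl R, 0.11 for SHR minus Dahl R and -0.09 for Dahl S minus SHR, and the gene lists below are read against these shifts. Taking the 75th percentile only over spots without an outlier mark moved the SHR medians to 0.42 for SHR minus Dahl R and -0.42 for Dahl S minus SHR. The lists hold family members, partners of the 3 proteins and markers of cells that could carry them. In Dahl S minus Dahl R, limma called 0 of the 62 tested genes of these pathway lists, beside 1.4% of all tested probes called. At an unadjusted p under 0.05 that comparison had 4 of the 62 higher and 3 lower. Over all 16592 tested probes 992 were higher and 750 lower at that limit. Without SHR replicate 3 limma called 2 of the 62 in Dahl S minus Dahl R, Clca4 and Galnt4, beside 4.59% of all probes.

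Few calls arose in the rest of Asb3's family, as over all tested probes. Of 17 other ASB genes 13 had a probe and 10 were tested, and their median difference was -0.08 in Dahl S minus Dahl R, -0.11 in SHR minus Dahl R and 0.04 in Dahl S minus SHR. None of the 10 passed in SHR minus Dahl R, beside 7.56% of all tested probes called higher and 5.49% lower. There 1 was lower at an unadjusted p under 0.05, beside 27.9% of all tested probes in either direction. In Dahl S minus SHR 1 was higher, beside 7.08% of all tested probes. It was Asb13, another substrate adaptor of this ligase class. Asb13 stood at -0.28, -0.82 and -0.96 in Dahl S, -3.79, -4.08 and -1.78 in SHR and -1.15, -2.21 and -1.59 in Dahl R. It was higher in Dahl S than in SHR by 2.53 (adjusted p = 0.0263), and its dimmest arrays were SHR replicates 1 and 2. With SHR replicate 3 left out, Asb13 was also lower in SHR than in Dahl R (log2 difference -2.28, adjusted p = 0.00395).

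All 10 listed partners of the cullin-5 ligase and of TNF receptor 2 were tested. In SHR minus Dahl R 2 rose and none fell, beside 7.56% of all tested probes called higher. Arih2, a ubiquitin ligase that acts with cullin-5, was higher by 0.36 (adjusted p = 0.0443), with 2 SHR arrays in the fit because the spot of the other carried an outlier mark. Tnfrsf1b, which encodes TNF receptor 2, stood at -0.30, -0.32 and 0.38 in SHR, against -0.70, -0.88 and -0.93 in Dahl R. It was higher in SHR by 0.76 (adjusted p = 0.0492), with no overlap, and by 0.53 without SHR replicate 3 (adjusted p = 0.0283). In Dahl S minus Dahl R, Tnfrsf1b differed by 0.13 (adjusted p = 0.932), and Cul5, the cullin itself, by 0.15 (adjusted p = 0.798). Dahl S minus SHR had no call in this list, with 1 gene lower at an unadjusted p under 0.05. Over all tested probes 31.4% were under that limit in either direction.

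Each of Clca1's 4 listed relatives had its lowest mean in Dahl R, as Clca1 did, but not all of them passed. All 4 other CLCA genes of the list were tested, and their median difference was 0.48 in Dahl S minus Dahl R, 0.83 in SHR minus Dahl R and -0.01 in Dahl S minus SHR. In SHR minus Dahl R 2 of the 4 rose, Clca4 and Clca4l, beside 7.56% of all tested probes called higher, and without SHR replicate 3 it was 3 of the 4, beside 12.2%. Clca4 stood at -1.91 and -1.97 in Dahl S replicates 2 and 3, at -2.03, -1.99 and -2.99 in SHR and at -3.56, -3.44 and -3.27 in Dahl R, and its spot on Dahl S replicate 1 carried an outlier mark. It was lowest in Dahl R on every array with a value, as Clca1 was. The SHR minus Dahl R difference of Clca4 was 1.09 (adjusted p = 0.0459), and the Dahl S minus Dahl R difference was 1.48 (adjusted p = 0.0919). Without SHR replicate 3, where the Clca4 spot was not well above background, those differences were 1.41 (adjusted p = 0.000488) and 1.48 (adjusted p = 0.00150).

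Clca4l, the Clca4-like copy, was higher in SHR than in Dahl R by 1.90 (adjusted p = 0.0226) and stood at -5.53 in Dahl S, -4.09 in SHR and -6.00 in Dahl R (means, n = 3 each). Without SHR replicate 3, where Clca4l was not well above background, it was higher by 1.43 (adjusted p = 0.0100). Its Dahl S minus SHR difference was -1.44 (adjusted p = 0.0525), beside 0.06 for Clca1, and -0.97 without SHR replicate 3 (adjusted p = 0.0369). Clca2 and Clca5 did not pass, with SHR minus Dahl R differences of 0.57 (adjusted p = 0.0860) and 0.12 (adjusted p = 0.806). With SHR replicate 3 left out, Clca2 passed there at 0.36 (adjusted p = 0.0464). The CLCA genes resemble each other in sequence, and probe sequences, which would show how specific each signal is, were not used here.

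Of 29 chloride channel genes and subunits 19 had a probe and 17 were tested. Ano1, which encodes the channel that CLCA1 acts on in human cells, did not pass in any comparison. Its difference was 0.12 in Dahl S minus Dahl R, 0.23 in SHR minus Dahl R and -0.12 in Dahl S minus SHR (adjusted p = 0.927, 0.371 and 0.669), with 2 Dahl S arrays in the fit. In SHR minus Dahl R 4 of the 17 rose and 1 fell, beside 7.56% and 5.49% of all tested probes, and in Dahl S minus SHR 1 rose and 3 fell, beside 7.08% and 8.62%. Clic5, a chloride intracellular channel protein found in podocytes, was higher in SHR than in Dahl R by 0.43 (adjusted p = 0.0216). Ano4, which encodes an anoctamin, was higher in SHR than in Dahl R by 1.40 (adjusted p = 0.00658) and at least 2.98-fold lower in Dahl S than in SHR. Lrrc8a, a subunit of the volume-regulated anion channel, was lower in SHR than in Dahl R (log2 difference -1.16, adjusted p = 0.00771). None of these 3 genes passed in Dahl S minus Dahl R, with adjusted p between 0.154 and 0.974.

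Other genes of mucus-producing cells were mostly dim. Of 10 listed markers 6 had a probe and 2 were tested. Foxa3 was well above background on none of the 9 arrays. Tff3, a trefoil peptide that the kidney also expresses, was the only one well above background on all 9. Tff3 was lower in SHR than in Dahl R (log2 difference -0.79, adjusted p = 0.0158) and higher in Dahl S than in SHR by 0.68 (adjusted p = 0.0234), with 2 SHR arrays in the fit. Over all tested probes 5.49% were called lower in SHR minus Dahl R and 7.08% higher in Dahl S minus SHR. The summed scaled signal of the 5 of these markers with a value on every array, where 1 is the 75th percentile, was 0.0355 to 0.0462 in Dahl S, 0.0497 to 0.213 in SHR and 0.0431 to 0.0494 in Dahl R. The high SHR sums were 0.188 on replicate 2, with 3 of the 5 spots well above background, and 0.213 on replicate 3, with 0 of the 5. On the Dahl S arrays 0 or 1 of the 5 was well above background, and on the Dahl R arrays 1 to 4. The part of these markers in the Clca1 difference was not tested.

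Galnt13 was set against 18 other genes of the GALNT family, of which 14 had a probe and 12 were tested. Their median difference was 0.01 in Dahl S minus Dahl R, 0.21 in SHR minus Dahl R and -0.22 in Dahl S minus SHR. In Dahl S minus SHR 1 of the 12 rose and 2 fell, beside 7.08% and 8.62% of all tested probes. In SHR minus Dahl R 1 rose and 1 fell, beside 7.56% and 5.49%. Galnt3, the transferase that glycosylates the phosphate hormone FGF23, stood at 3.49, 3.49 and 3.33 in Dahl S, 2.35, 2.12 and 2.63 in SHR and 3.64, 3.40 and 3.26 in Dahl R. Galnt3 was lower in SHR than in Dahl R (log2 difference -1.07, adjusted p = 0.00461) and higher in Dahl S than in SHR by 1.07 (adjusted p = 0.00407). Its Dahl S minus Dahl R difference was 0.0037 (adjusted p = 0.999), beside the 3.97 of Galnt13. Galnt18 ran the other way, higher in SHR than in Dahl R by 0.62 (adjusted p = 0.0142) and lower in Dahl S than in SHR (log2 difference -0.45, adjusted p = 0.0374), with 2 SHR arrays in the fit. Galntl5 was lower in Dahl S than in SHR (log2 difference -1.51, adjusted p = 0.0261), and by -1.24 without SHR replicate 3 (adjusted p = 0.0381). It was well above background on only 1 of 3 Dahl S arrays and 2 of 3 SHR arrays, so the size of that difference is uncertain.

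**Figure D3:**
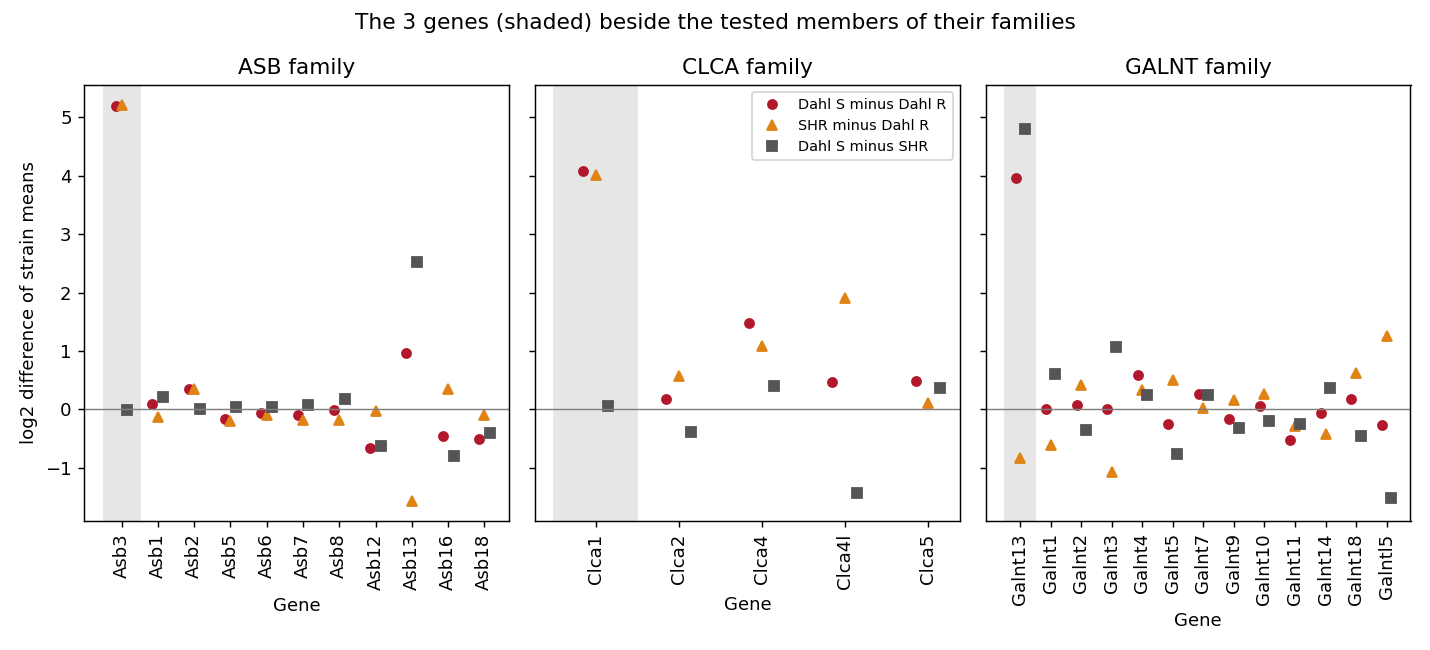
Log2 difference of strain means for each member (shaded) and the tested genes of its family, for Dahl S minus Dahl R (circles), SHR minus Dahl R (triangles) and Dahl S minus SHR (squares). In Dahl S minus Dahl R the other ASB and GALNT genes reach 0.96 (Asb13) and 0.59 (Galnt4), and Clca4 lies at 1.48 there and at 1.09 in SHR minus Dahl R.

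Enzymes that extend O-glycans after the first sugar were tested for 7 of 15 genes, and 11 had a probe. Gcnt1, which makes the core 2 branch, was lower in SHR than in Dahl R (log2 difference -1.80, adjusted p = 0.0435) and higher in Dahl S than in SHR by 2.63 (adjusted p = 0.00936). St6galnac2, a sialyltransferase, was also higher in Dahl S than in SHR, by 0.83 (adjusted p = 0.0276). No other tested gene of the list passed in a comparison over all 9 arrays. So 2 of the 7 rose in Dahl S minus SHR, beside 7.08% of all tested probes. In SHR minus Dahl R 1 fell, beside 5.49%.

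Markers of neurons, the cells Galnt13 is best known from, differed in brightness. Of 11 listed genes 10 had a probe and 0 to 5 of these were well above background on an array. None was so on all 9 arrays, and Rbfox3, Syt1, Map2 and Elavl4 were well above background on none. The summed scaled signal of the 10 was 1.80 to 3.83 in Dahl S, 0.298 to 0.604 in SHR and 1.44 to 2.18 in Dahl R. Nefm, a neurofilament subunit, made up most of it in both Dahl strains and was lower in SHR than in Dahl R (log2 difference -3.47, adjusted p = 0.000346) and higher in Dahl S than in SHR by 3.89 (adjusted p = 0.000172). Tubb3, a neuronal tubulin, was higher in Dahl S than in SHR by 1.25 (adjusted p = 0.0362) and Elavl3, an RNA-binding protein of neurons, was lower (log2 difference -0.73, adjusted p = 0.00430). In that comparison 2 of the 5 tested markers were called higher and 1 lower, beside 7.08% and 8.62% of all tested probes. In SHR minus Dahl R 1 was called higher and 1 lower, beside 7.56% and 5.49%. The summed neuron signal was lowest in SHR, as the mean of Galnt13 was. Between Dahl S and Dahl R the sums overlapped, whereas the Galnt13 levels did not. Nefm differed by 0.43 in Dahl S minus Dahl R (adjusted p = 0.739). The part of the neuron markers in the Galnt13 difference was not tested.

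None of the tested genes beside the 3 members on their chromosomes passed between the Dahl strains over all 9 arrays. The nearest 5 annotated genes with a probe on each side gave 26 neighbours, with only 1 on the Chac2 side of Asb3, where no further annotated gene had a probe, and 25 were tested. In Dahl S minus Dahl R limma called 0 of the 25, beside 1.4% of all tested probes. At an unadjusted p under 0.05, 4 were higher and 1 lower, beside 992 higher and 750 lower of all 16592 tested probes. In SHR minus Dahl R 4 rose and 3 fell, beside 7.56% and 5.49% of all probes, and in Dahl S minus SHR 2 rose and none fell, beside 7.08% and 8.62%. Without SHR replicate 3 the counts were 2 higher (Clca4 and Rprm) and 0 lower in Dahl S minus Dahl R, 5 and 4 in SHR minus Dahl R, and 5 and 1 in Dahl S minus SHR. The share of all probes called in Dahl S minus Dahl R in that fit was 4.59% in either direction. In the others it was 12.2% higher and 10.6% lower in SHR minus Dahl R, and 13.0% higher and 13.2% lower in Dahl S minus SHR.

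The genes directly beside Asb3 were Erlec1 and Chac2. Erlec1, a lectin of the endoplasmic reticulum, differed by -0.07 in Dahl S minus Dahl R and by 0.09 in SHR minus Dahl R (adjusted p = 0.950 and 0.658). Chac2, which encodes a glutathione-degrading enzyme, ran opposite to Asb3. It stood at -1.73, -1.86 and -1.85 in SHR, against -1.16, -1.06 and -1.10 in Dahl R, a difference of -0.71 (adjusted p = 0.0102). Next to Clca1 lie the other CLCA genes, and Clca4, its nearest neighbour on one side, was described above. On the other side of Clca1, Znhit6 was higher in SHR than in Dahl R by 0.33 (adjusted p = 0.0443). Ddah1, which breaks down a natural inhibitor of nitric oxide synthase, was lower in SHR than in Dahl R (log2 difference -1.28, adjusted p = 0.00490) and higher in Dahl S than in SHR by 1.17 (adjusted p = 0.00644). Beside Galnt13, Rprm, linked to cell cycle arrest, stood at -0.01, -0.21 and 0.32 in SHR, against -1.52, -1.60 and -1.38 in Dahl R, higher by 1.53 (adjusted p = 0.00269). Cacnb4, a calcium channel subunit, was lower in SHR (log2 difference -0.78, adjusted p = 0.0379), a call lost without SHR replicate 3 (adjusted p = 0.0536). Nr4a2, an orphan nuclear receptor, was higher in Dahl S than in SHR by 1.08 (adjusted p = 0.0103).

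**Figure D4:**
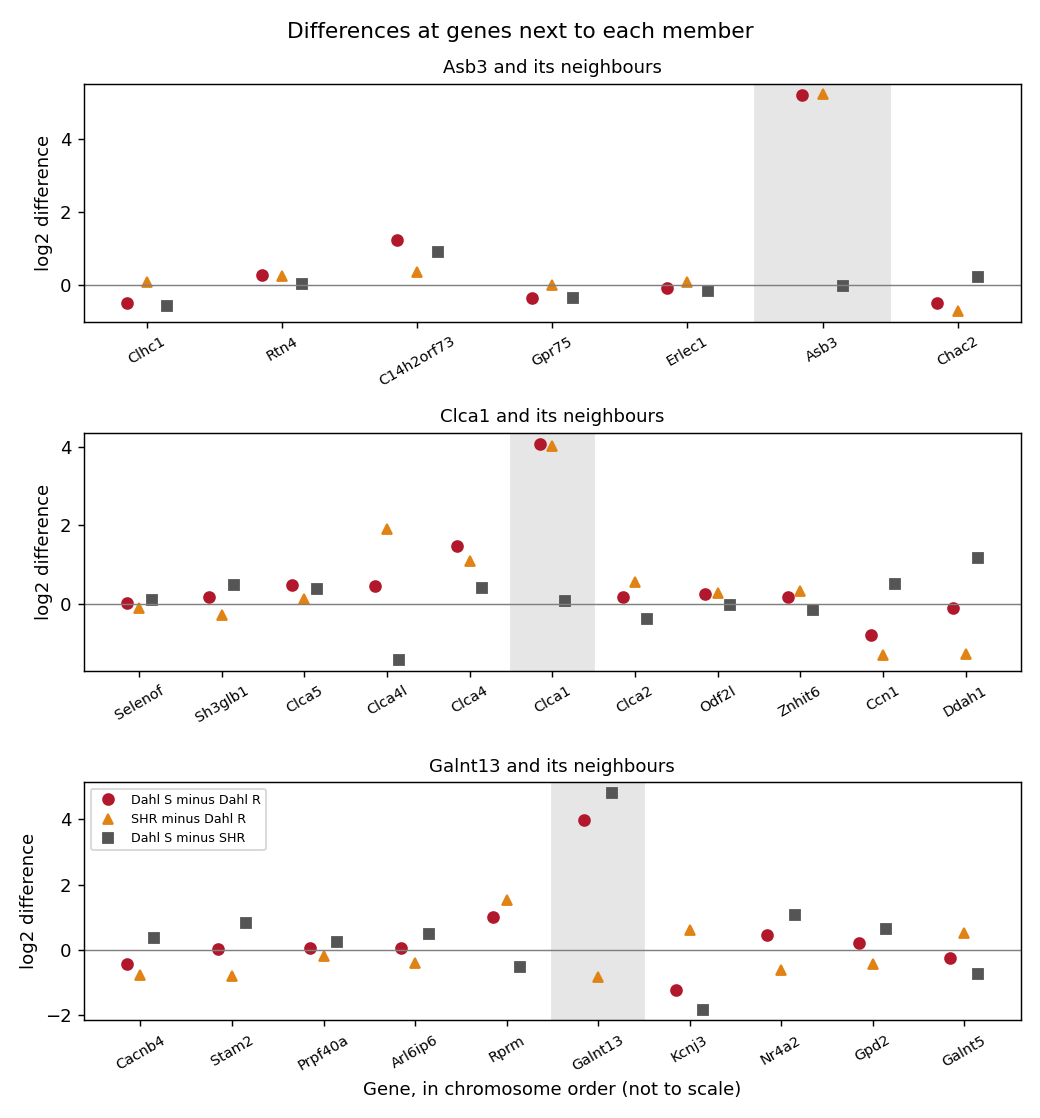
Log2 difference of strain means for each member (shaded) and its tested neighbours in RefSeq chromosome order, evenly spaced and not to scale, for Dahl S minus Dahl R (circles), SHR minus Dahl R (triangles) and Dahl S minus SHR (squares). The member stands out in its row in Dahl S minus Dahl R, and the nearest other value there is 1.48 for Clca4.

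Genes whose levels were most like those of each member were sought by Pearson's r over the 9 arrays among 9002 genes with a value on every array. Those for Asb3 were Eif1ad at r = 0.994, Nes at 0.991, Phf11 at 0.986 and Ly6i at 0.984. For Clca1 they were D2hgdh at 0.977, Nes at 0.976, Zfp53 at 0.964 and Dcdc2 at 0.960. Nes, which encodes the intermediate filament protein nestin, a podocyte protein in the kidney, was in both lists. It stood at 1.01, 0.79 and 0.97 in Dahl S, 1.00, 0.84 and 1.00 in SHR and -0.25, -0.22 and -0.31 in Dahl R. High likeness did not mean a difference of the same size, since Nes differed by 1.18 between Dahl S and Dahl R and Asb3 by 5.20. Eif1ad differed by 1.37 there and Ly6i, of the Ly6 family of membrane-anchored proteins, by 3.69.

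For Galnt13 the most alike genes were Hsph1 at r = 0.988, Klra22 at 0.978, Mcemp1 at 0.969 and Npas2 at 0.967. Hsph1, a heat-shock protein, stood at 4.68, 4.70 and 4.73 in Dahl S, 4.17, 4.12 and 4.43 in SHR and 4.31, 4.20 and 4.31 in Dahl R. Its Dahl S minus SHR difference was 0.46, small beside the 4.80 of Galnt13. Mcemp1 repeated more of the pattern, with means of -2.82 ± 0.22 in Dahl S, -5.24 ± 0.39 in SHR and -4.40 ± 0.17 in Dahl R (SD, n = 3 each). Over the 8 arrays without SHR replicate 3 the correlations of these genes with their members lay between 0.958 and 0.993. They were chosen for their likeness among all these genes, and no test was made on it.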

How the data were processed

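Kidney RNA of 9 rats was labelled with Cy3 and hybridised to 1-colour Agilent arrays, per the labels' protocols. The authors extracted spot intensities with the software Agilent Feature Extraction, version 10.5.1.1, as the submitters' processing notes state, and the deposited intensity is the processed signal after background subtraction. Of 43553 spots, 1417 were control spots and were left out, which left 24684 probes. Intensities were set on a log2 scale minus log2 of the array's 75th percentile, spots marked as outliers were treated as missing, and spots of a probe were averaged. Testing required a value in each strain and, on 3 or more arrays, a share of 0.5 or more of a probe's spots marked well above background. Strain was fitted with limma 3.58.1 in R 4.3.3 over all 9 arrays, and p-values were adjusted by the Benjamini-Hochberg method over all 16592 tested probes, with a threshold of 0.05. The procedure was tested on simulated data. The number of arrays, 3 per strain, limits precision.

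The authors' deposited table of processed values is on a log2 scale as read from the values, with r between 0.974 and 1.00 against the scanner signals and medians of 9.63 to 9.64. Its normalization is not given in the sources used here, and it served as an alternative. Replicate numbers were not treated as pairs in the main fit. Deviations of arrays with the same number correlated at -0.16 to 0.07, and those with different numbers at -0.18 to 0.20. These correlations cannot settle whether the numbers pair the animals.

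The members and the gene lists were chosen with earlier results of these data known. Genes named with values were the members, list genes past the threshold in a comparison, the 4 genes of highest Pearson's r with each member, and the nearest 5 annotated genes with a probe on each side. List genes named without a call (Ano1, Cul5, Clca2, Clca5, Erlec1, Foxa3) were chosen for their role or place after values were seen. A rule to name each member's closest paralog by protein identity was not applied, because protein sequences were not used here, and a rule to name the paralog of highest level was not applied, because levels of different probes are not compared. Calls in the marker lists of other cell types are not reported here, and whether they bear on a member was not tested. Gene symbols came from a match of the probes' RefSeq accessions to the RefSeq annotation of GRCr8, which named 14294 probes. Some genes of the chloride channel list are counted but not reported by name here. List counts without SHR replicate 3 were added after seeing the data. Alternatives were a normexp correction with an offset of 50, quantile normalization, the authors' table, other filters, scan as a block, the replicate number as a block, and leaving out each array.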

Additional observations from a re-analysis of the deposited data

How the results depend on the processing

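Alternatives changed some differences of the 3 genes and the counts over all probes, and the cause of each change was not tested unless stated. Asb3 in SHR minus Dahl R and Galnt13 in Dahl S minus SHR passed the threshold under all 18 alternatives, with differences of 4.53 to 5.57 and 2.91 to 5.64. Clca1 in SHR minus Dahl R passed under 17 of 18, with differences of 1.63 to 4.37. The exception was normexp, with 1.63 (adjusted p = 0.384). That correction left the 5th percentile of log2 signal at -1.62 on Dahl S replicate 2 and -3.56 on SHR replicate 3, against -5.29 to -3.93 on the others.

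Galnt13 in SHR minus Dahl R depended on the setting. It was 0.13 under normexp, -1.61 after quantile normalization (adjusted p = 0.0118), -1.62 in the authors' deposited table (adjusted p = 0.0143) and -1.46 with scan as a block (adjusted p = 0.0306). Asb3 in Dahl S minus SHR changed sign to 0.0249 after quantile normalization and 0.0203 in the authors' deposited table, without passing. Clca1 in Dahl S minus SHR was -0.30 with the percentile over unmarked spots and 1.51 with scan as a block (adjusted p = 0.0734), a fit in which no scan held both strains. In the untested Dahl S minus Dahl R contrast, normexp gave 4.42 for Asb3, 2.21 for Clca1 and 3.04 for Galnt13. Scan as a block gave 5.06 for Asb3 and 4.79 for Clca1, and quantile normalization and the authors' deposited table gave 3.44 and 3.45 for Clca1.

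Called probes over the whole array numbered 233 in Dahl S minus Dahl R, 2165 in SHR minus Dahl R and 2605 in Dahl S minus SHR. In that order they were 43, 414 and 548 under normexp, with 65.1%, 41.1% and 70.4% higher, beside 50.2%, 57.9% and 45.1% before it. They were 93, 1188 and 1491 with no filter on dim probes, and 40, 503 and 626 with the percentile over unmarked spots. Scan as a block gave 866 in Dahl S minus SHR, with 61.3% higher. The replicate block gave 75, 1424 and 1902 and changed no call of a member in the comparisons tested.

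Leaving out 1 array at a time gave 74 to 761, 960 to 3772 and 1280 to 4345 called probes, and each highest count came without SHR replicate 3. Over those 9 fits Asb3 ranged over 5.10 to 5.26, 5.12 to 5.28 and -0.0505 to 0.0120. Clca1 ranged over 3.73 to 4.37, 3.64 to 4.34 and -0.26 to 0.44, and Galnt13 over 3.63 to 4.18, -1.67 to -0.28 and 4.25 to 5.64. Signal over background limits Clca1 in Dahl R and Galnt13 in SHR, where most spots were not well above background.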
